A study of Mus musculus with 12 samples.

Results

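The genes described here encode enzymes that make NADPH in the cytosol and the enzymes of the pentose phosphate pathway, and they were chosen by name: Pgd, G6pdx, Tkt, Taldo1, Rpia, Me1 and Idh1. A gene was taken from the array when a probe set, the probes that together read a transcript cluster, carried that symbol and no other in the probe annotation. Of the 7 genes listed, 6 were matched, out of 19937 genes with such a probe set in the series, and all 6 passed the filter on dim probe sets. G6pdx was not analysed here, because no probe set was matched to it.

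NADPH is the electron donor of fatty acid and sterol synthesis, and it keeps glutathione and thioredoxin reduced. The oxidative branch of the pentose phosphate pathway makes it in the steps catalysed by glucose-6-phosphate dehydrogenase (G6pdx) and 6-phosphogluconate dehydrogenase (Pgd). The non-oxidative branch, with ribose-5-phosphate isomerase (Rpia), transketolase (Tkt) and transaldolase (Taldo1), makes no NADPH and interconverts pentose phosphates with sugar phosphates of glycolysis. The cytosolic malic enzyme (Me1) and the cytosolic isocitrate dehydrogenase (Idh1) yield NADPH from malate and isocitrate. In liver, several of these enzymes are known to be more abundant on a lipogenic diet, together with fatty acid synthase.

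The study set the liver response to long-lasting insulin derivatives side by side. Liver RNA was hybridized to 12 Affymetrix Mouse Gene 1.0 ST arrays, 3 for each of 4 treatments given under the skin of wild type C57BL/6 mice 6 h before the livers were taken: 55 nmol/kg Albulin (insulin fused to albumin), 55 nmol/kg Insulin-Apo (single-chain insulin fused to human apolipoprotein A-I), insulin glargine at 55 nmol/kg (an analogue with prolonged action) or saline. The labels give an age of 6 weeks for the mice, and the methods give another age at purchase and name only females. Insulin glargine arrays are in the labels but not in the methods, which describe arrays of the other 3 treatments. The Albulin, Insulin-Apo and saline arrays are described as replicate liver samples, without a statement on whether each held the RNA of a single mouse, and the insulin glargine arrays are not described. The p values therefore reflect the spread among arrays, part of which can be technical. Values are log2 expression levels after Robust Multichip Average (RMA) normalization by the authors. Array medians lay between 7.70 and 7.77, and each array correlated with its group mates at a mean r of 0.995 to 0.997 in the Albulin, Insulin-Apo and saline groups and 0.990 to 0.993 in the insulin glargine group. Hepatocyte markers were high in every group, and 7 of the 8 listed had a probe set. Their mean level was 14.36 to 14.37 after Albulin, 14.29 to 14.38 after Insulin-Apo, 14.41 to 14.48 after insulin glargine and 14.43 to 14.45 after saline. A gene was called when B, the log odds that limma gives for a difference, exceeded 0, and adjusted p values are those of the Benjamini-Hochberg method over all probe sets tested. Several comparisons share arrays: all those with saline use the same saline arrays, and all those with Albulin the same Albulin arrays.

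The start regions of the members were read from RefSeq (GRCm38.p6) as 250 bases before and 50 after each annotated start, and all 7 genes had at least 1 of the 10 windows matched. Pgd, Me1 and Idh1 are printed because they had the smallest p over the 4 treatments. Capitals mark matches, on either strand, to 4 letter patterns: the E-box CACGTG, the core of the antioxidant response element TGACNNNGC, a sterol regulatory element TCACNCCAC and the NF-Y box CCAAT, which do not overlap in these windows. Positions are counted from the annotated start, with no position 0. The Pgd window lies at chr4:149166656-149166955 on the minus strand, the Me1 window at chr9:86695865-86696164 on the minus strand and the Idh1 window at chr1:65186430-65186729 on the minus strand.
Pgd: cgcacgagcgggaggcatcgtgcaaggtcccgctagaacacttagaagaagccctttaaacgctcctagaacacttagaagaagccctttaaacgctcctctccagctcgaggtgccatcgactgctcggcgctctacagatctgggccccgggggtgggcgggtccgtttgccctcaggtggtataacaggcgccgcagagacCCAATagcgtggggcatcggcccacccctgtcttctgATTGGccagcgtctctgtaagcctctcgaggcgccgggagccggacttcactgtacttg
Me1: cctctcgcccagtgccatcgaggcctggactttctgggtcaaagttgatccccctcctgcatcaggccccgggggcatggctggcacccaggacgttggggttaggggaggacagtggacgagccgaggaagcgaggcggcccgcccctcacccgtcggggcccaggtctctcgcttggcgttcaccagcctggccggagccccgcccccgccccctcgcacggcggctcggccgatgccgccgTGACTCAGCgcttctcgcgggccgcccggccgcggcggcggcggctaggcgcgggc
Idh1: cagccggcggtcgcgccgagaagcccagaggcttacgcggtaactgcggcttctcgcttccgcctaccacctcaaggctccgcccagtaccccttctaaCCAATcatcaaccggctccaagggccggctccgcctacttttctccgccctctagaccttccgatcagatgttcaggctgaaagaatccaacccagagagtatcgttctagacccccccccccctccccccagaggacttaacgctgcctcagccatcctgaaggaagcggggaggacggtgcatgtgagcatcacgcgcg
The Pgd window held the NF-Y box at -46 to -42 and, on the other strand, at -9 to -5, and Idh1 held it at -151 to -147. The Me1 window held TGACTCAGC, a match to the antioxidant response element core, across the start at -6 to 3. Of the windows not printed, G6pdx held that core at -57 to -49 and Taldo1 the NF-Y box at -9 to -5, while the windows of Tkt and Rpia held none of the 4 patterns. A further Pgd window, chr4:149166033-149166332, held the antioxidant response element core at 4 to 12, and a further Me1 window the NF-Y box at -208 to -204. The matches of G6pdx, of Taldo1 and in the further Me1 window lie on the other strand. Among all 32851 windows of the table, 37.4% held the NF-Y box, 12.4% the antioxidant response element core, 7.15% the E-box and 1.24% the sterol regulatory element. These are matches of letters, and binding was not measured.

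Pgd was the member with the clearest difference, Idh1 came next, and both stood highest after Albulin. Over the 6 members, 1 was called between Albulin and saline (Pgd, higher), where 2.41% of all probe sets were called and 1.37% were called higher. An adjusted p under 0.05 was reached there by 3 members (Pgd, Idh1 and Me1) and by 4.69% of all probe sets. Between Albulin and Insulin-Apo 1 was called (Pgd, higher), against 0.639% of all probe sets called and 0.25% called higher. Between insulin glargine and Albulin 2 were called (Pgd and Idh1, both lower), against 4.35% called and 2.35% called lower. Insulin-Apo and saline gave 0 of 6 calls with limma, where 2.14% of all probe sets were called, and none of the 6 had an unadjusted p under 0.05, which 17.4% of all probe sets had. Insulin glargine and saline gave 0 calls and 2 members with an unadjusted p under 0.05 (Idh1 and Rpia, both lower), where 4.84% of all probe sets were called and 22.5% had such a p. Insulin glargine and Insulin-Apo gave 0 calls, also against 4.84%, and 1 member with such a p (Idh1), against 23.5%. These shares of members at an unadjusted p are near those of all probe sets. Median log2 differences of the members were 0.29 between Albulin and saline and 0.30 between Albulin and Insulin-Apo, beside medians of 0.00 and 0.02 over all probe sets. They were -0.31 between insulin glargine and Albulin, against -0.01 over all probe sets, and between -0.02 and 0.01 in the other 3 comparisons.

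Array ranges did not overlap for 4 of the 6 members between Albulin and saline (Pgd, Tkt, Me1 and Idh1), where 23.3% of all probe sets were so separated, nor for the same 4 between Albulin and Insulin-Apo, where 18.6% were. Between insulin glargine and Albulin 3 were separated (Pgd, Me1 and Idh1), against 23% of all probe sets. Insulin glargine and saline were separated for 2 (Idh1 and Rpia), against 24.8%, insulin glargine and Insulin-Apo for 1 (Idh1), against 25.4%, and Insulin-Apo and saline for 0, against 23.1%. A single test over the 4 treatments gave an adjusted p of 0.000472 for Pgd (moderated F, limma), 0.00940 for Idh1, 0.0350 for Me1, 0.159 for Tkt, 0.311 for Rpia and 0.851 for Taldo1. In that test 13.3% of all probe sets had an adjusted p under 0.05.

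Pgd, the dehydrogenase that releases NADPH and carbon dioxide from 6-phosphogluconate, was higher after Albulin than after every other treatment. On the 3 arrays of each group, Pgd (probe set 10518570) stood at 11.22, 10.87 and 11.26 after Albulin, at 10.36, 9.97 and 10.22 after Insulin-Apo, at 10.30, 10.37 and 10.18 after insulin glargine and at 10.25, 10.18 and 10.14 after saline (log2). All Albulin arrays lay above all 9 other arrays, and the other 3 groups overlapped. As compared with saline, Albulin livers had a Pgd level that was higher by 0.93 (log2, 1.90-fold, standard error 0.12, 95% confidence interval 0.67 to 1.18, adjusted p = 0.00198, limma). Against Insulin-Apo the difference was also 0.93 (1.91-fold, 95% confidence interval 0.68 to 1.19, adjusted p = 0.0163), and Pgd ranked 11 by p among the 25989 probe sets of that comparison. Insulin glargine livers were lower than Albulin livers, with a log2 difference of -0.83 (0.562-fold, 95% confidence interval -1.08 to -0.58, adjusted p = 0.000734). These 3 calls stood in every alternative processing tried.

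Neither of the other insulins gave a called difference of Pgd from saline. The log2 difference was -0.01 after Insulin-Apo (95% confidence interval -0.27 to 0.25, adjusted p = 0.981) and 0.09 after insulin glargine (95% confidence interval -0.16 to 0.35, adjusted p = 0.750). Insulin glargine and Insulin-Apo differed by 0.10 (95% confidence interval -0.15 to 0.35, adjusted p = 0.668). In order of their means, Albulin stood at 11.12 ± 0.22 (SD, n = 3), insulin glargine at 10.28 ± 0.10, saline at 10.19 ± 0.06 and Insulin-Apo at 10.18 ± 0.20, and only the step from Albulin to insulin glargine was called. In liver as a whole, a higher level per cell and a larger share of cells with the transcript cannot be told apart.

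**Figure D1:**
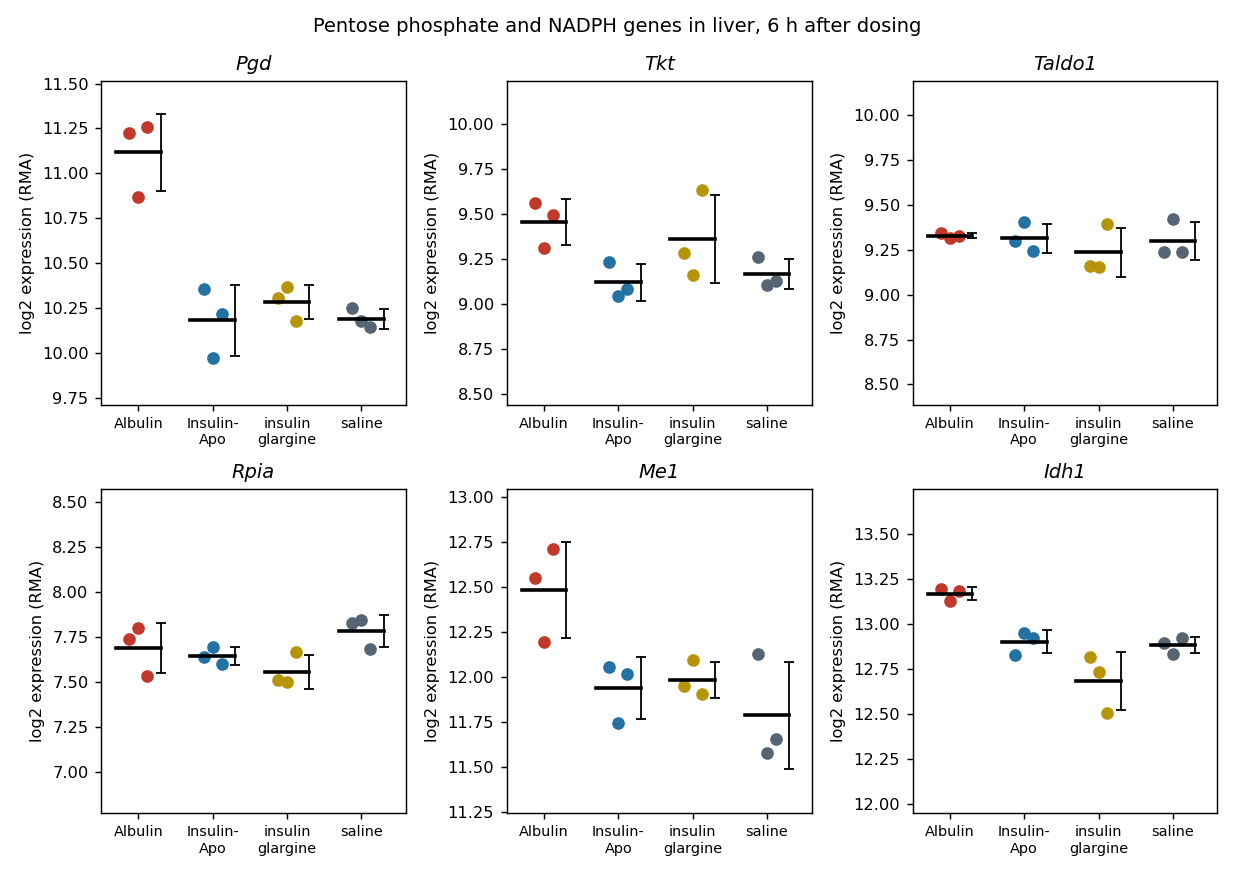
Log2 expression (RMA, vertical axes) of the 6 members on each array, by treatment (horizontal axes). Points are arrays, bars are means and whiskers are the SD (n = 3), and all panels span the same log2 range. The Albulin points of Pgd, between 10.87 and 11.26, lie above all other arrays, while the groups of Taldo1 overlap throughout.

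Markers of other cells of the liver differed between treatments too. All 8 neutrophil markers had a probe set, and their mean level was 7.40 to 7.61 on the Albulin arrays, 7.17 to 7.38 on the Insulin-Apo arrays, 6.61 to 6.89 on the insulin glargine arrays and 6.71 to 6.99 on the saline arrays. Between Albulin and saline 4 of the 8 were called, all higher (S100a8 by 0.95, S100a9 by 0.64, Cxcr2 by 0.92 and Mmp8 by 1.04), and between insulin glargine and Albulin 5 were called, all lower (Cxcr2, Ly6g, Retnlg, S100a8 and S100a9). Insulin glargine also had 3 of them lower than Insulin-Apo (Cxcr2, S100a8 and S100a9). Between Albulin and Insulin-Apo none was called with limma and 2 had an unadjusted p under 0.05. Of all probe sets, 2.41% were called between Albulin and saline and 4.35% between insulin glargine and Albulin. The share was 4.84% between insulin glargine and Insulin-Apo and 0.639% between Albulin and Insulin-Apo. All 11 markers of Kupffer cells and macrophages had a probe set and averaged 10.39 to 10.55 after Albulin, 10.43 to 10.82 after Insulin-Apo, 9.74 to 10.41 after insulin glargine and 10.15 to 10.38 after saline, and none was called between Albulin and saline. Insulin-Apo livers had 2 of them higher than saline livers (Lyz2 by 0.63 and Marco by 0.93), where 2.14% of all probe sets were called. After insulin glargine Lyz2 was lower than after Albulin by a log2 difference of -0.78, and Lyz2, Marco and Cd68 were lower than after Insulin-Apo, by -1.10, -1.18 and -0.74.

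Calls of other marker lists came only in comparisons with insulin glargine, where 4.35% to 4.84% of all probe sets were called. Markers of T, NK and B cells, 8 of 9 with a probe set, averaged 7.17 to 7.38 after Albulin, 7.15 to 7.28 after Insulin-Apo, 6.93 to 6.98 after insulin glargine and 7.05 to 7.19 after saline. Insulin glargine livers had less Cd79b (-0.74) and Ms4a1 (-0.94) than Albulin livers and less Nkg7 (-0.51) than Insulin-Apo livers. The 8 markers of sinusoidal endothelium averaged 10.64 to 10.80 after Albulin, 10.66 to 10.78 after Insulin-Apo, 10.37 to 10.68 after insulin glargine and 10.30 to 10.73 after saline. Of them only Kdr was called, lower after insulin glargine than after Albulin (-0.66) and Insulin-Apo (-0.53). Clec4g, Oit3 and Fcgr2b also had their lowest mean after insulin glargine, whereas Lyve1, Pecam1 and Stab2 had their highest there. Lyve1 averaged 11.67 after insulin glargine and 10.51 after saline. Of adipocyte markers, 5 of 6 with a probe set, only Cidec was called, higher after insulin glargine than after Albulin (1.85) and saline (1.75). The means of the others after insulin glargine and saline were 5.46 and 5.40 for Adipoq, 7.53 and 7.57 for Plin1, 6.58 and 6.70 for Lep, and 7.12 and 7.10 for Retn. Of cholangiocyte markers, 5 of 6 with a probe set, Krt19 was higher after insulin glargine than after Insulin-Apo (0.52), and Krt7, Sox9, Epcam and Cftr were not called. None of the stellate cell or erythroid markers was called in any of the 6 comparisons. The part of these cells in the differences of Pgd, of the other members and of the genes described after them was not tested.

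The other dehydrogenase of the oxidative branch, G6pdx, was approached only through a copy. G6pd2 (probe set 10521984), a gene that is nearly identical to G6pdx and known to be transcribed in testis, stood at 8.04, 8.25 and 8.19 after Albulin, at 8.28, 8.05 and 8.12 after Insulin-Apo, at 8.03, 8.27 and 8.07 after insulin glargine and at 8.08, 8.03 and 8.11 after saline. The groups overlapped, and the log2 difference between Albulin and saline was 0.09 (95% confidence interval -0.09 to 0.26, adjusted p = 0.653). Probes of near-identical copies can read both transcripts, so these values are not a measure of G6pdx.

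Among the enzymes of the non-oxidative branch, none was called in any comparison. Tkt (probe set 10413542), the transketolase, stood at 9.56, 9.31 and 9.49 after Albulin, at 9.24, 9.04 and 9.08 after Insulin-Apo, at 9.28, 9.16 and 9.64 after insulin glargine and at 9.26, 9.11 and 9.13 after saline. The Albulin arrays lay above those of saline and of Insulin-Apo, and the insulin glargine arrays overlapped with the Albulin and saline arrays. The log2 difference of Tkt was 0.29 between Albulin and saline (95% confidence interval 0.11 to 0.48, adjusted p = 0.0824) and 0.34 between Albulin and Insulin-Apo (95% confidence interval 0.15 to 0.52, adjusted p = 0.143). Insulin glargine differed from saline by 0.19 (95% confidence interval -0.05 to 0.44, adjusted p = 0.374), with replicate 3 highest of all 12 arrays, from Albulin by -0.10 (95% confidence interval -0.34 to 0.15) and from Insulin-Apo by 0.24 (95% confidence interval -0.01 to 0.49). The difference of Insulin-Apo from saline was -0.05 (95% confidence interval -0.23 to 0.14).

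Taldo1 (probe set 10558903), the transaldolase, had the group means that lay closest together among the 6 members. Its level was 9.34, 9.32 and 9.33 after Albulin, 9.30, 9.40 and 9.24 after Insulin-Apo, 9.16, 9.15 and 9.39 after insulin glargine and 9.24, 9.42 and 9.24 after saline. The groups overlapped, the 6 log2 differences lay between -0.09 and 0.03, and the interval between Albulin and saline ran from -0.13 to 0.19 (adjusted p = 0.901). Rpia (probe set 10545255), the isomerase that forms ribose 5-phosphate, was at 7.74, 7.80 and 7.53 after Albulin, at 7.64, 7.69 and 7.60 after Insulin-Apo, at 7.51, 7.50 and 7.67 after insulin glargine and at 7.83, 7.85 and 7.68 after saline. Saline arrays were highest on average, and the insulin glargine arrays lay below them without overlap. The log2 difference of Rpia was -0.09 between Albulin and saline (95% confidence interval -0.27 to 0.08, adjusted p = 0.623), -0.14 between Insulin-Apo and saline (adjusted p = 0.419) and -0.23 between insulin glargine and saline (95% confidence interval -0.41 to -0.04, adjusted p = 0.117). Among the insulins it was 0.05 between Albulin and Insulin-Apo, -0.13 between insulin glargine and Albulin and -0.09 between insulin glargine and Insulin-Apo, each with an interval that spanned 0.

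Me1, the malic enzyme that turns malate into pyruvate with release of NADPH, was on average highest after Albulin, but the difference did not pass the B threshold. Its main probe set (10595480) stood at 12.55, 12.19 and 12.71 after Albulin, at 12.06, 11.74 and 12.02 after Insulin-Apo, at 11.95, 12.09 and 11.91 after insulin glargine and at 12.13, 11.58 and 11.65 after saline. Each Albulin array lay above the arrays of the other groups, and saline replicate 1 stood well above the other two saline arrays. The log2 difference between Albulin and saline was 0.70 (1.62-fold, standard error 0.16, 95% confidence interval 0.34 to 1.05, adjusted p = 0.0340, B = -0.83). Without saline replicate 1 the difference was 0.87 and called (adjusted p = 0.0169), and without Albulin replicate 2 it was 0.84 and called (adjusted p = 0.0284). With 1 array left out it ran from 0.58 to 0.87. Over all alternatives the adjusted p ran from 0.0122 to 0.139, and Me1 was called in 5 of 22. Between Albulin and Insulin-Apo the difference was 0.55 (95% confidence interval 0.19 to 0.90, adjusted p = 0.188), and between insulin glargine and Albulin it was -0.50 (95% confidence interval -0.84 to -0.16, adjusted p = 0.0679). Insulin-Apo and insulin glargine differed from saline by 0.15 and 0.20, with intervals that spanned 0.

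The array has another probe set for Me1 (10405753), which read 11.58, 11.22 and 11.91 after Albulin, 11.20, 10.89 and 11.00 after Insulin-Apo, 11.13, 11.15 and 10.54 after insulin glargine and 11.08, 10.50 and 10.69 after saline. The Albulin arrays were again above all others. Its log2 difference between Albulin and saline was 0.82 (95% confidence interval 0.43 to 1.20, adjusted p = 0.0260), and it was not called either.

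Idh1 (probe set 10355214), which oxidizes isocitrate in the cytosol and in peroxisomes, was highest after Albulin and lowest after insulin glargine. Levels were 13.20, 13.13 and 13.18 after Albulin, 12.83, 12.95 and 12.92 after Insulin-Apo, 12.81, 12.73 and 12.50 after insulin glargine and 12.89, 12.83 and 12.92 after saline. The Albulin arrays lay above all others and the insulin glargine arrays below all others. Idh1 was lower after insulin glargine than after Albulin by a called log2 difference of -0.48 (0.715-fold, standard error 0.08, 95% confidence interval -0.66 to -0.31, adjusted p = 0.00252). Between Albulin and saline it differed by 0.29 (1.22-fold, 95% confidence interval 0.15 to 0.42, adjusted p = 0.0262, B = -0.33) and between Albulin and Insulin-Apo by 0.27 (95% confidence interval 0.13 to 0.40, adjusted p = 0.114), neither of them called. Insulin glargine differed from saline by -0.20 (95% confidence interval -0.37 to -0.02, adjusted p = 0.158), and Insulin-Apo by 0.02 (95% confidence interval -0.12 to 0.15). None of the 3 neighbouring steps in the order Albulin, Insulin-Apo, saline and insulin glargine was called. The call between insulin glargine and Albulin was lost in a fit of only those 6 arrays (adjusted p = 0.0301).

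**Figure D2:**
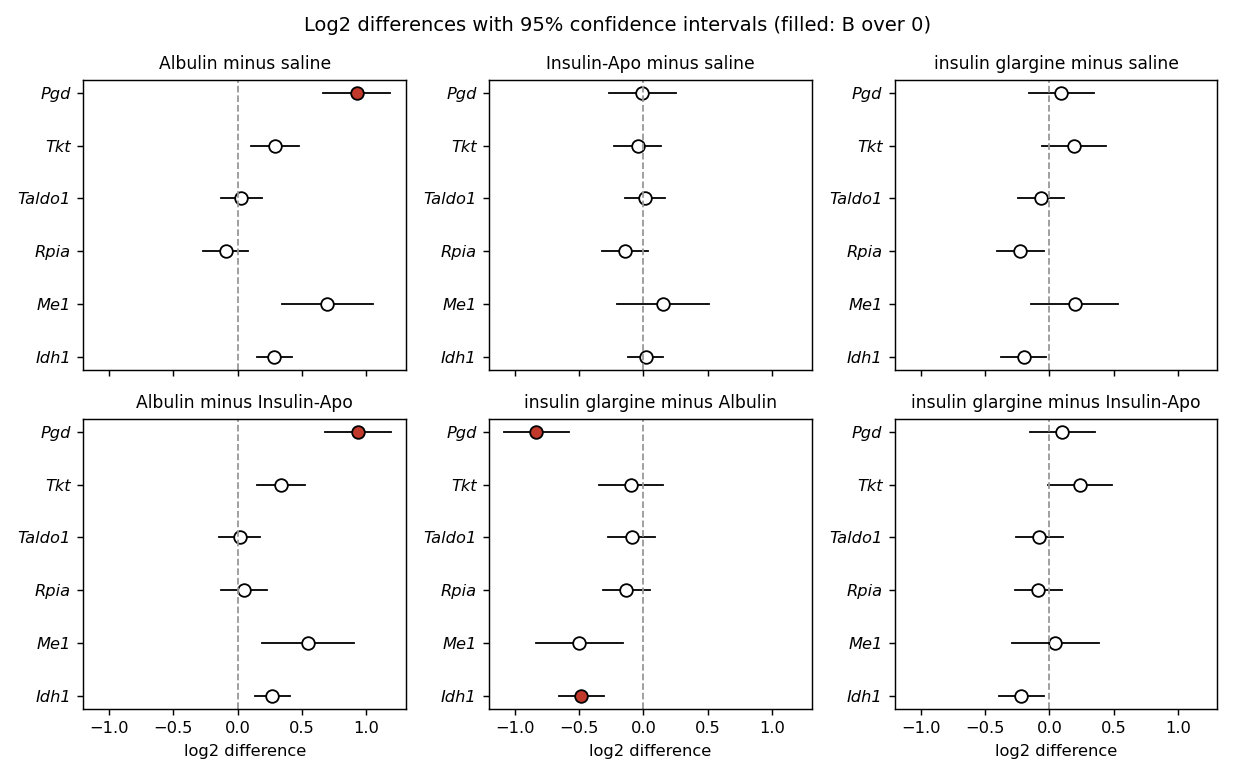
Log2 differences of the 6 members (points) with 95% confidence intervals (lines) in the 6 comparisons, the horizontal axis being the log2 difference of the treatments named above each panel. Filled points were called (B over 0): Pgd in the 3 comparisons with Albulin and Idh1 between insulin glargine and Albulin.

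Spread between the arrays of a group differed among the members. The pooled SD within groups was 0.223 for Me1, 0.157 for Pgd and 0.154 for Tkt, which was larger than in 91.1%, 76.5% and 75.3% of all probe sets, and it was 0.0984 for Rpia, 0.0962 for Taldo1 and 0.0914 for Idh1, below the median of 0.114. Albulin replicate 2 was the lowest Albulin array for Pgd, Tkt, Me1 and Idh1, by 0.25, 0.14, 0.29 and 0.04 below the group mean. Insulin-Apo replicate 2 was likewise lowest of its group for Pgd, Tkt and Me1, and saline replicate 1 was highest of its group for these 3. Among insulin glargine arrays, replicate 3 was lowest for Pgd, Me1 and Idh1 and highest for Tkt, Taldo1 and Rpia. What set these arrays apart was not tested.

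The genes with the pattern most like that of Pgd over the 12 arrays were Fv1, Me1 and Adcy10. Their root mean square differences from Pgd, between values centred on each gene's mean, were 0.173, 0.184 and 0.189. The median was 0.429 over all probe sets with a single gene symbol. Fv1, a restriction gene against murine leukaemia virus, averaged 8.17 after Albulin, 7.60 after Insulin-Apo, 7.52 after insulin glargine and 7.60 after saline. Adcy10, a soluble adenylyl cyclase, averaged 6.53 after Albulin, 6.04 after Insulin-Apo, 6.04 after insulin glargine and 6.01 after saline. For Idh1 the nearest genes were Lrp6, Mbtd1 and Ctnnb1, at 0.0796, 0.0803 and 0.0883, against a median of 0.224 over the same probe sets. Ctnnb1, which encodes beta-catenin, averaged 12.25 after Albulin, 12.15 after Insulin-Apo, 11.85 after insulin glargine and 12.06 after saline, and Lrp6, a co-receptor of Wnt proteins, 11.03 after Albulin, 10.76 after Insulin-Apo, 10.61 after insulin glargine and 10.67 after saline.

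Of 11 other genes of the pentose phosphate pathway and its branches, all with a probe set, H6pd alone was called. Of all probe sets, 0.639% to 4.84% were called, depending on the comparison. H6pd encodes the glucose-6-phosphate dehydrogenase of the endoplasmic reticulum, which makes NADPH inside that compartment. Its level was 12.64, 12.54 and 12.52 after Albulin, 12.35, 12.37 and 12.33 after Insulin-Apo, 11.07, 11.37 and 11.51 after insulin glargine and 12.06, 11.96 and 11.94 after saline. The 4 groups did not overlap on any array. H6pd rose after Albulin, by 0.58 (log2, 95% confidence interval 0.44 to 0.72, adjusted p = 0.00101) and by 0.36 after Insulin-Apo (95% confidence interval 0.22 to 0.50, adjusted p = 0.0116) as compared with saline, and Albulin and Insulin-Apo differed by 0.22 without a call (adjusted p = 0.183). After insulin glargine H6pd was lower, with called log2 differences of -1.25 from Albulin (95% confidence interval -1.46 to -1.04, adjusted p = 1.26e-05), -1.03 from Insulin-Apo and -0.67 from saline (95% confidence interval -0.88 to -0.46, adjusted p = 0.000886).

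The call of H6pd after Insulin-Apo was lost without Insulin-Apo replicate 1 (0.36, adjusted p = 0.0395), Insulin-Apo replicate 2 (0.35, adjusted p = 0.0443), saline replicate 2 (0.35, adjusted p = 0.0570) or saline replicate 3 (0.34, adjusted p = 0.0382), and with all 12 arrays fitted together (adjusted p = 0.0850). Pgls, the lactonase between the dehydrogenases, differed between Albulin and saline by -0.14 (95% confidence interval -0.32 to 0.05), and Rpe, the epimerase that makes xylulose 5-phosphate, by 0.09 (95% confidence interval -0.08 to 0.26). The median log2 difference of the 11 genes was 0.04 between Albulin and saline.

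Other sources of NADPH gave calls for folate enzymes only, where 0.639% to 4.84% of all probe sets were called, depending on the comparison. All 11 genes of this list had a probe set, and their median log2 difference lay between -0.07 and 0.06 in the 6 comparisons. Mthfd1, the cytosolic enzyme whose dehydrogenase step forms NADPH from methylene-tetrahydrofolate, stood at 11.98, 11.89 and 11.81 after Albulin, at 11.58, 11.54 and 11.77 after Insulin-Apo, at 11.83, 11.59 and 11.65 after insulin glargine and at 12.07, 12.27 and 12.12 after saline. All saline arrays lay above the arrays of the 3 insulins. Mthfd1 fell by 0.52 on the log2 scale after Insulin-Apo (95% confidence interval -0.71 to -0.34, adjusted p = 0.00754) and by 0.46 after insulin glargine (95% confidence interval -0.66 to -0.27, adjusted p = 0.00557), and after Albulin the difference was -0.26 (adjusted p = 0.114). The call after insulin glargine was lost in 9 of 24 alternatives, among them array weights, a further quantile normalization, a fit of only the 2 groups compared (adjusted p = 0.0302), and fits without saline replicate 2 (-0.41), saline replicate 3 (-0.48), insulin glargine replicate 2 (-0.42) or insulin glargine replicate 3 (-0.44).

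Aldh1l1, which oxidizes formyl-tetrahydrofolate with release of NADPH, differed between Insulin-Apo and the other treatments. It stood at 13.01, 12.94 and 12.79 after Albulin, at 12.38, 12.43 and 12.64 after Insulin-Apo, at 13.31, 13.19 and 13.30 after insulin glargine and at 12.92, 13.06 and 12.87 after saline. The Insulin-Apo arrays were lowest and the insulin glargine arrays highest, with no overlap with the other groups. Aldh1l1 was higher after insulin glargine than after Insulin-Apo by 0.78 (95% confidence interval 0.59 to 0.98, adjusted p = 0.000181) and fell by 0.47 after Insulin-Apo as compared with saline (95% confidence interval -0.66 to -0.27, adjusted p = 0.0182). That fall was not called without Insulin-Apo replicate 1 (adjusted p = 0.0646), Insulin-Apo replicate 2 (0.0628), saline replicate 1 (0.0520) or saline replicate 2 (0.0841). Albulin exceeded Insulin-Apo by 0.43 (adjusted p = 0.0928), a call lost in 12 of 22 alternatives, among them those without Albulin replicate 1 (0.38) or 2 (0.41), Insulin-Apo replicate 1 (0.38) or 2 (0.40), or saline replicate 1 or 3 (0.43). Mitochondrial counterparts of the members were not called: between Albulin and saline, Idh2 differed by -0.11 (95% confidence interval -0.29 to 0.08), Me3 by -0.05 (95% confidence interval -0.19 to 0.09) and Nnt, the nicotinamide nucleotide transhydrogenase, by -0.01 (95% confidence interval -0.15 to 0.14).

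**Figure D3:**
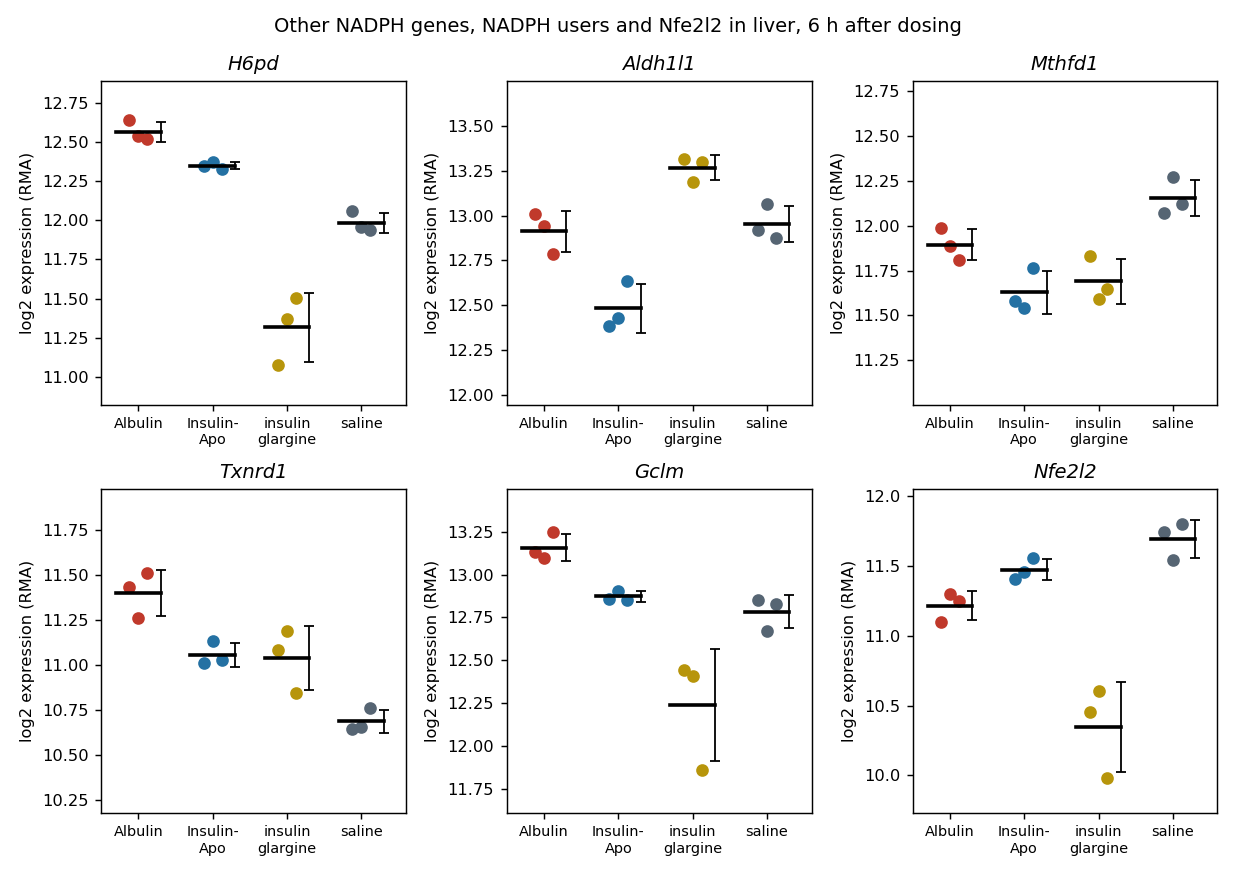
Log2 expression (RMA, vertical axes) on each array, by treatment (horizontal axes), of 6 genes outside the member list: H6pd, Aldh1l1, Mthfd1, Txnrd1, Gclm and Nfe2l2. Points are arrays, bars are means and whiskers are the SD (n = 3). H6pd lies between 11.07 and 11.51 after insulin glargine, below all other arrays.

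Citrate export and cleavage supply cytosolic oxaloacetate, which is reduced to the malate that Me1 uses. Of 12 genes of this route 10 had a probe set. The share of all probe sets called ran from 0.639% to 4.84% over the comparisons. Acly, the ATP citrate lyase, stood at 11.82, 11.26 and 11.75 after Albulin, at 10.42, 9.96 and 9.89 after Insulin-Apo, at 10.83, 10.56 and 10.27 after insulin glargine and at 10.02, 10.12 and 10.06 after saline. As with Pgd, the Albulin arrays lay above all others. Called log2 differences of Acly were 1.55 between Albulin and saline (adjusted p = 0.000690), 1.52 between Albulin and Insulin-Apo (adjusted p = 0.00804) and -1.06 between insulin glargine and Albulin (adjusted p = 0.00229). Cs, the citrate synthase of mitochondria, rose by 0.79 after insulin glargine as compared with saline (adjusted p = 0.00160) and was 0.80 higher than after Insulin-Apo (adjusted p = 0.00155). Aco1, the cytosolic aconitase that forms the isocitrate used by Idh1, fell by 0.36 after Insulin-Apo (adjusted p = 0.0135), a call lost in 6 of 22 alternatives, among them the fits without Insulin-Apo replicate 1 (-0.33), Insulin-Apo replicate 2 (-0.35) or any 1 of the 3 saline arrays (-0.35 to -0.36).

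The fatty acid synthesis genes, whose products consume NADPH or work beside those that do, all had probe sets. After Albulin 4 of 12 rose as compared with saline and none fell: Fasn, the fatty acid synthase, by 1.42 (adjusted p = 0.00301), Acaca, the acetyl-CoA carboxylase, by 1.39 (adjusted p = 0.000257), Elovl6, an elongase, by 0.93 (adjusted p = 0.00475) and Thrsp, a lipogenic protein induced by thyroid hormone, by 0.90 (adjusted p = 0.0205). The call of Thrsp was lost in 11 of 22 alternatives, among them those without Albulin replicate 1 (0.74) or 3 (0.82), saline replicate 1 (0.88) or 3 (0.81) or any 1 Insulin-Apo array (0.90). Of all probe sets, 2.41% were called between Albulin and saline. None of the 12 was called after Insulin-Apo with limma, against 2.14% of all probe sets, and 5 had an unadjusted p under 0.05, against 17.4%. Thrsp was called there, as lower, in a fit of only those 2 groups and without Albulin replicate 2. Scd1 was called, also as lower, without Insulin-Apo replicate 1. Means after Insulin-Apo and saline were 8.37 and 9.07 for Thrsp, and 13.52 and 14.07 for Scd1. After insulin glargine 1 was called, against 4.84% of all probe sets: Thrsp, which was 1.58 higher than after saline (adjusted p = 0.000469). Fasn after insulin glargine differed from saline by 1.09 (95% confidence interval 0.57 to 1.61, adjusted p = 0.0109) and from Albulin by -0.33 (95% confidence interval -0.85 to 0.19), and neither was called. Against Insulin-Apo, Albulin livers had more Fasn (1.46), Acaca (1.09) and Thrsp (1.60), and insulin glargine livers had more Thrsp (2.28). Median log2 differences from saline over the 12 genes were 0.08 after Albulin, -0.05 after Insulin-Apo and 0.18 after insulin glargine. Insulin glargine differed from Albulin by -1.03 for Acaca (adjusted p = 0.000436) and by 0.59 for the desaturase Fads2. The call of Fads2 was lost in 13 of 24 alternatives, among them those without any 1 Albulin array (0.51 to 0.63), any 1 saline array, Insulin-Apo replicate 3, or insulin glargine replicate 2 (0.61) or 3 (0.49). Of 9 genes of sterol synthesis 6 had a probe set, and calls came only with insulin glargine, apart from Dhcr7 between Albulin and saline without Albulin replicate 1: Fdft1, the squalene synthase, differed by -0.90 from saline, -0.61 from Albulin and -0.57 from Insulin-Apo, and Dhcr7, a sterol reductase, by 0.68 from Albulin and 0.70 from Insulin-Apo. In the comparisons with insulin glargine, 4.35% to 4.84% of all probe sets were called. Without Insulin-Apo replicate 2 (-0.55) or 3 (-0.51) or insulin glargine replicate 2 (-0.55) or 3 (-0.56), Fdft1 was not called against Insulin-Apo, nor was Dhcr7 against Albulin without Albulin replicate 2 (0.64).

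Glutathione, thioredoxin and other antioxidant genes include users of NADPH and targets of NRF2, the transcription factor encoded by Nfe2l2, which is known to control Me1, Pgd, G6pdx, Tkt and Taldo1 as well. All 12 had probe sets. After Albulin 4 rose and none fell as compared with saline, where 2.41% of all probe sets were called. After Insulin-Apo none was called with limma, against 2.14% of all probe sets. An unadjusted p under 0.05 was reached there by 2 of the 12, and by 17.4% of all probe sets. In 10 of 22 alternatives 1 gene was called after Insulin-Apo, Txnrd1 in 9 of them, so the lack of a call for that gene depends on the processing. Compared directly, Albulin and Insulin-Apo gave 0 calls among the 12 genes, where 0.639% of all probe sets were called, and 4 had an unadjusted p under 0.05. In 6 of 22 alternatives 1 gene was called in that comparison. Median log2 differences of the list from saline were 0.27 after Albulin, 0.10 after Insulin-Apo and 0.09 after insulin glargine, beside 0.00, -0.02 and -0.00 over all probe sets. Txnrd1, the cytosolic thioredoxin reductase, stood at 11.43, 11.26 and 11.51 after Albulin, at 11.01, 11.14 and 11.03 after Insulin-Apo, at 11.09, 11.19 and 10.84 after insulin glargine and at 10.65, 10.66 and 10.76 after saline. Arrays of the 3 insulins all lay above saline. It rose by 0.71 after Albulin (95% confidence interval 0.54 to 0.88, adjusted p = 0.00101), while its difference from saline was 0.37 after Insulin-Apo (adjusted p = 0.0260) and 0.35 after insulin glargine (adjusted p = 0.0312), without a call.

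The other 3 that rose after Albulin were Hmox1, the inducible heme oxygenase, by 1.02 (adjusted p = 0.00928), and Gclc and Gclm, the subunits of glutamate-cysteine ligase, by 0.87 (adjusted p = 0.0191) and 0.37 (adjusted p = 0.0144). Without Albulin replicate 3 or saline replicate 2 only 1 of the 4 was called (Txnrd1), and without Albulin replicate 1 or saline replicate 3 only 2 (Txnrd1 and Hmox1). With all 12 arrays fitted together Gclm (adjusted p = 0.176) and Hmox1 (adjusted p = 0.0439) were not called, and in a fit of only the Albulin and saline arrays Gclc and Gclm were not. Gclm stood at 13.13, 13.09 and 13.25 after Albulin, at 12.86, 12.91 and 12.85 after Insulin-Apo, at 12.44, 12.41 and 11.86 after insulin glargine and at 12.85, 12.67 and 12.83 after saline. Its insulin glargine arrays lay below all others, with a called log2 difference of -0.92 from Albulin (adjusted p = 0.000678), another of -0.63 from Insulin-Apo, and -0.55 from saline, which was not called (adjusted p = 0.0150). The difference from Insulin-Apo was not called without Albulin replicate 1 or 2, saline replicate 1 or 3 or any 1 Insulin-Apo array (-0.64 to -0.62). Insulin glargine also gave higher Srxn1, the sulfiredoxin, than saline (0.84, adjusted p = 0.00122) and lower Txnrd2, the mitochondrial thioredoxin reductase (-0.44, adjusted p = 0.00371), whose call was lost without saline replicate 1 (-0.41) or 2 (-0.44) or insulin glargine replicate 2 (-0.40).

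Of 12 regulators of these genes 11 had a probe set, and the transcript of Nfe2l2 itself was the only one called, although at least 1 of Mlxipl, Nr1h3, Srebf1, Mlx and Pparg joined it in some alternatives. It stood at 11.10, 11.30 and 11.25 after Albulin, at 11.41, 11.46 and 11.56 after Insulin-Apo, at 10.45, 10.61 and 9.98 after insulin glargine and at 11.75, 11.54 and 11.80 after saline. Insulin glargine arrays were lowest and lay well apart from the rest. Over the comparisons, 0.639% to 4.84% of all probe sets were called. Nfe2l2 fell by 1.35 after insulin glargine as compared with saline (95% confidence interval -1.64 to -1.06, adjusted p = 9.04e-05) and was lower than after Albulin (-0.87, adjusted p = 0.00147) and Insulin-Apo (-1.13, adjusted p = 0.000245). It also fell by 0.48 after Albulin (95% confidence interval -0.67 to -0.29, adjusted p = 0.0110), a call lost without Albulin replicate 1 (-0.42), saline replicate 1 (-0.45) or saline replicate 3 (-0.43), and also when all 12 arrays were fitted together. These are transcript levels, and the protein was not measured.

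**Figure D4:**
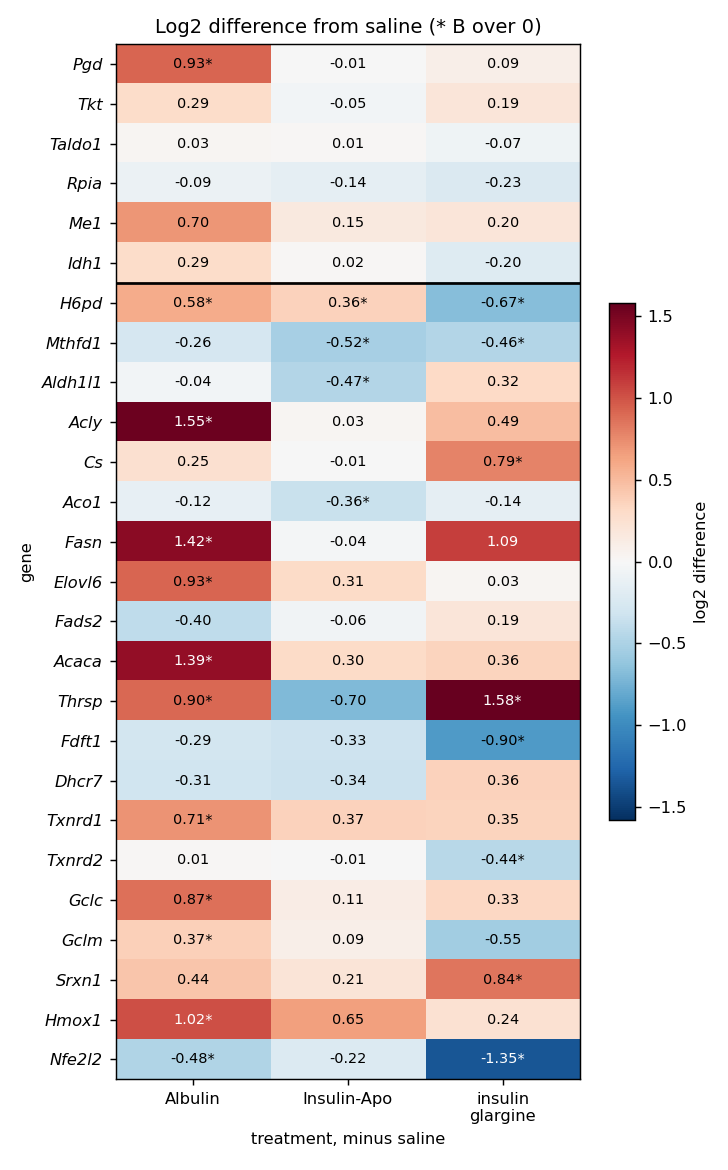
Log2 difference from saline (colour and printed value) of the 6 members, above the line, and 20 other genes called in at least 1 of the 6 comparisons (rows), after Albulin, Insulin-Apo and insulin glargine (columns). A star marks a call (B over 0). Among the members only Pgd after Albulin has a star, and none has one after Insulin-Apo or insulin glargine.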

How the data were processed

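The authors hybridized liver RNA to Affymetrix Mouse Gene 1.0 ST arrays and processed the scans with RMA, so that the deposited table of 28213 probe sets is on the log2 scale. Not given in the sources used here are the RMA version, the annotation build and whether all 12 arrays went through RMA together. A single gene symbol was annotated for 21640 probe sets (21620 matched RefSeq), more than 1 for 1321 and no symbol for 5252. A gene read by several probe sets was represented by the one with the highest mean.

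Groups came from the labels. A probe set entered a fit when 2 or more arrays of some group exceeded 5, which held for 25989 in the 9 arrays of Albulin, Insulin-Apo and saline and 26027 in all 12. Comparisons among those 3 groups used limma 3.58.1 (R 4.3.3) on the 9 arrays, those with insulin glargine all 12, with B over 0 (prior proportion 0.01) as the call, and a moderated F test covered the 4 treatments. With 3 arrays per group, their number limits precision. The procedure was run on simulated data with independent noise on each array and differences planted in Albulin only, read between Albulin and saline. That run does not cover the comparisons with insulin glargine or effects that arrays share. Python 3.11.15 with matplotlib 3.10.9 drew the figures.

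The members, gene lists and tests were chosen with earlier results of these data known. Named were all members, every gene of the other pathway lists called in a comparison, and the 3 genes most like each called member. Cell markers and other genes (Pgls, Rpe, G6pd2, Idh2, Me3, Nnt, Nr1h3, Mlxipl, Srebf1, Mlx, Pparg, Scd1) were named after their values were seen. The alternatives were the filter, scaling, spread, fit, threshold and probe set choices given in the closing section. A planned comparison of protein sequences was not run.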

Additional observations from a re-analysis of the deposited data

How the results depend on the processing

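Alternatives were no filter, a filter at 6, median centring, a further quantile normalization, the replicate block, a trend of variance with intensity, array quality weights, other sets of arrays, calls at an adjusted p under 0.05 with or without a limit of 0.58 on the log2 difference, only probe sets of 1 symbol, means over a gene's probe sets, and leaving out each array. Pgd kept its calls in all of them: 0.85 to 1.05 between Albulin and saline, 0.83 to 1.06 between Albulin and Insulin-Apo (adjusted p 0.00857 to 0.108) and -0.96 to -0.76 between insulin glargine and Albulin.

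The number of members called between Albulin and saline was 2 with the replicate block (Me1 and Pgd), the trend or the weights (Idh1 and Pgd), 3 with an adjusted p under 0.05 alone, 2 with the added 0.58 limit, and 1 to 2 with an array left out. Between Albulin and Insulin-Apo it was 2 with a further quantile normalization or the block (Pgd and Tkt) and with the trend (Idh1 and Pgd), and 1 with any array left out. Between insulin glargine and Albulin it was 1 with the 0.58 limit or with only those 6 arrays, and 2 with any array left out. It was 0 in every alternative of the other 3 comparisons.

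Signs turned only for differences near 0 that were never called: with median centring Pgd between Insulin-Apo and saline (0.012) and Taldo1 between Albulin and Insulin-Apo (-0.0074), with a further quantile normalization Taldo1 between Insulin-Apo and saline (-0.011), and with the mean of the probe sets Me1 between insulin glargine and Insulin-Apo (-0.024). With an array left out they ranged, between Insulin-Apo and saline, from -0.10 to 0.10 for Pgd, -0.0066 to 0.054 for Idh1, -0.032 to 0.074 for Taldo1 and -0.10 to 0.0022 for Tkt. They ranged between Albulin and Insulin-Apo from -0.021 to 0.060 for Taldo1 and -0.0077 to 0.12 for Rpia, between Albulin and saline from -0.0026 to 0.089 for Taldo1, between insulin glargine and Insulin-Apo from -0.052 to 0.10 for Me1 and -0.0039 to 0.19 for Pgd, and between insulin glargine and Albulin from -0.23 to 0.0028 for Tkt. The causes were not tested.

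Taken over all pairs, same-numbered arrays did not deviate together. Over 18 such pairs the correlation of deviations from group means ran from -0.27 to 0.15 (median -0.06). Over 36 pairs of other numbers it ran from -0.17 to 0.27 (median 0.03). The replicate number was therefore used as a block only as an alternative, and it moved no member's call beyond those named. For Me1, Pgd and Tkt, however, replicate 1 lay above and replicate 2 below the group mean after Albulin, Insulin-Apo and saline. The insulin glargine arrays did not share this order, nor did Idh1, Taldo1 and Rpia. With the block, the standard error of Me1 between Albulin and saline was 0.110, against 0.161 without it. Whether same-numbered arrays share an origin was not tested. Of the other pathway genes, the block lost the calls of Mthfd1 between insulin glargine and saline (adjusted p = 0.0135), Aldh1l1 against Insulin-Apo in the Albulin and saline comparisons (0.146 and 0.0411), Thrsp and Gclm between Albulin and saline, Fads2 between insulin glargine and Albulin, and Gclm and Srxn1 between insulin glargine and Insulin-Apo. It added those of Hmox1 between Insulin-Apo and saline, Nr1h3 between insulin glargine and saline and Mlxipl between insulin glargine and Albulin. All probe sets called numbered 626 between Albulin and saline (378 to 1219 over the alternatives), 556 between Insulin-Apo and saline (324 to 969), 166 between Albulin and Insulin-Apo (28 to 180), 1259 between insulin glargine and saline (783 to 2848), 1133 between insulin glargine and Albulin (701 to 2327) and 1259 between insulin glargine and Insulin-Apo (645 to 2823). Signal over background was not given with the values, so the precision of dim probe sets could not be set by it.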
